A study of Homo sapiens with 12 samples.

Results

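The voltage-gated sodium channel genes are 7 genes taken by symbol, out of 4692 gene names in the 5 tables of the authors' own comparisons used here. SCN1A, SCN2A, SCN3A, SCN8A and SCN9A encode pore-forming alpha subunits, and SCN2B and SCN3B encode beta subunits. At least 1 of the 5 tables listed 4 members: SCN2A, SCN3A and SCN8A with changed splicing and SCN9A with changed polyadenylation. SCN1A, SCN2B and SCN3B were in none of them.

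The libraries came from cortical neurons grown from the human embryonic stem cell line WA01, in which overexpressed NGN2, a proneural transcription factor, drove differentiation. One group carried an shRNA against TDP-43, the RNA-binding protein encoded by TARDBP, and the other a scrambled shRNA, each for 7 days. RNA-seq and 3' end-seq, which reads the ends of polyadenylated transcripts, each had 3 TDP-43 shRNA and 3 scrambled shRNA libraries, 12 in all. The study asked how loss of TDP-43 changes polyadenylation. All neurons derive from 1 stem cell line, and whether replicates were separate cultures is not labelled, so the p-values given by the authors may reflect technical spread alone. No value per library is used, so no spread between replicates can be shown, the depth is unknown, and neither the strength of the knockdown nor the neuronal identity of the cells was checked against expression. The tables list changed items only, so a gene that is absent from a table may have been unchanged or untested.

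Voltage-gated sodium channels open on depolarization and carry the inward current of the action potential. The alpha subunit is one long protein with 4 homologous domains that forms the pore, the voltage sensors and the inactivation gate, while beta subunits have a single membrane pass and adjust gating and surface level. Neurons concentrate these channels at the axon initial segment, where ankyrin-G anchors them. Several alpha subunit genes carry alternative copies of an exon that encodes part of a voltage sensor in the first domain, and neurons choose one copy or the other, with an embryonic and an adult form.

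SCN2A, which encodes the alpha subunit found along unmyelinated axons and in young initial segments, has more than one RefSeq transcription start. The bases around its first 2 starts on the plus strand of chromosome 2 (RefSeq, GRCh38.p14) are shown because the junctions that rose in SCN2A leave from donors at most 226 nt past one of them. The junction that fell most leaves from a donor much farther on. Each line covers 100 bases before the start in lower case and the 30 bases from the start onward in capitals. The first line is chr2:165239314-165239443 and the second is chr2:165240960-165241089.
SCN2A first start: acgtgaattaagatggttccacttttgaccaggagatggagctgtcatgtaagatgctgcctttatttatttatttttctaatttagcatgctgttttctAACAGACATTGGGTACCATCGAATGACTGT
SCN2A second start: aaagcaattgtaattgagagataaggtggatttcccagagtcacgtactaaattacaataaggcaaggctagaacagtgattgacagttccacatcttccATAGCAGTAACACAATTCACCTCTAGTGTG

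RefSeq promoter windows of 300 bases, of which these are parts, were found for 5 members, 7 windows in all. They were searched on both strands for TATAAA, the letters of a TATA box, and for TGTGTG, the DNA letters of the UG repeat that TDP-43 binds in RNA. Each motif was in 1 of the 7 windows, that of the second SCN2A start. Over all 35116 windows, 11.5% held TATAAA and 17.2% held TGTGTG. These matches describe letters in a window and not a bound site.

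SCN9A transcripts, which encode an alpha subunit best known from pain-sensing neurons, ended early far more often after TDP-43 knockdown. A site inside an intron had a usage of 60.3% in TDP-43 shRNA neurons and 4.14% in scrambled shRNA neurons in the authors' deposited table of cryptic sites, a gain of 56.1 percentage points and a ratio of 14.6. With 1 value per group in that table, no error can be given. The site marks a premature end, since the authors placed it in an intron and flagged it as premature polyadenylation. Of the 7 members SCN9A was the only one with a cryptic site in that table, where 1.95% of 20056 RefSeq protein-coding genes had one and 0.499% had a premature one.

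The authors' deposited table of 3' end-seq changes called SCN9A shorter, with a change in polyadenylation usage index of -0.538 and an adjusted p-value listed as 0. An adjusted p of exactly 0 was listed for 150 entries of that table, so it gives no order among them. Either direction was listed for 9.53% of RefSeq protein-coding genes, and shorter for 1.34%. SCN9A was the only member listed there. By size its change ranked 7 among the 339 entries called shorter. The size of the index change, 0.538, and the gain in usage as a fraction, 0.561, had a ratio of 0.959. The median ratio was 0.993 over the 199 cryptic sites that were also rising sites, all from the authors' deposited tables. Both values describe the same site in the same 3' end-seq libraries, so their likeness is not independent support.

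The rising site of SCN9A at position 166221392 lay 154.6 kb from the RefSeq start of the gene, on the minus strand of chromosome 2 (hg38). The falling site at 166198388 lay 177.6 kb from it, 3203 nt before the RefSeq end of the gene, which spans positions 166195185 to 166375987. On the scale of the gene, the rising site stood 85.5% of the way along and the falling site 98.2%. Most other premature intronic sites lay earlier in their genes. Among the 44 entries called shorter whose rising site was a premature intronic cryptic site, 37 had that site inside their RefSeq gene, at a median of 27.4% of the span. Of these, 4 had a site farther along than that of SCN9A and 32 had one nearer the start. Percentages of span include introns and do not say how much of the coding sequence lies before the site.

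Among the 129 intronic cryptic sites, SCN9A ranked 5 by usage in TDP-43 shRNA neurons in the authors' deposited table. The median intronic site had 20% usage in TDP-43 shRNA neurons and 3.41% in scrambled shRNA neurons, with a median ratio of 6.36. By ratio SCN9A ranked 18, because its usage in scrambled shRNA neurons was not among the lowest: 42 of the intronic sites had a higher value there.

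**Figure D1:**
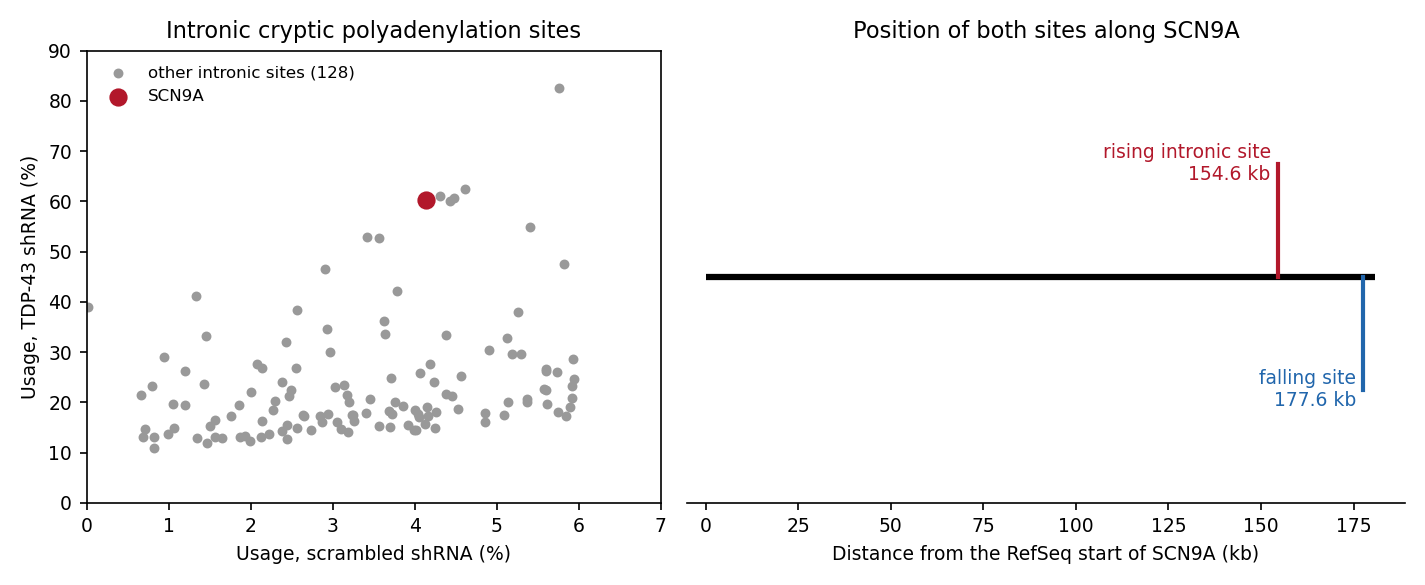
Left, usage of the 129 intronic cryptic sites in TDP-43 shRNA neurons (y axis, percent) against scrambled shRNA neurons (x axis, percent), 1 value per group, with SCN9A in red at 60.3% and 4.14%. Right, the RefSeq span of SCN9A as a line in kb from its start, with the rising intronic site at 154.6 kb and the falling site at 177.6 kb.

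No junction of SCN9A was in the splicing tables, so none could be set beside its sites. The RNA-seq polyadenylation table listed 0 of the 7 members, where 4.18% of RefSeq protein-coding genes were listed. The shift in SCN9A was thus listed from 3' end-seq alone, and absence from the RNA-seq lists does not show that RNA-seq had no change there.

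Splicing changed in 3 members. The authors' deposited table of leafcutter clusters, sets of introns that share splice sites, held 2994 clusters with an adjusted p up to 0.05. SCN3A had 2 of them, SCN2A 1 and SCN8A 1. Of the RefSeq protein-coding genes 11.7% had a cluster, and of those that span at least 100 kb 21.9% had one. The 5 alpha subunit genes all exceed that length, from 116.5 kb in SCN3A to 221.6 kb in SCN8A, while SCN3B spans 25.4 kb and SCN2B 13.8 kb. The parts of gene length and of expression in the members' count were not tested.

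The values of this table are changes in a junction's share of its cluster, in percentage points, and sum to about 0 within a cluster. Which group was subtracted is not stated. Positive values are read here as higher in TDP-43 shRNA neurons. This reading rests on STMN2, whose unannotated junction gained 44.9 points in the authors' deposited table and ended just before a cryptic site used at 39.0% in TDP-43 shRNA neurons and 0.0207% in scrambled shRNA neurons. It was the only unannotated 3' junction listed within 1000 nt upstream of an intronic cryptic site. Under the opposite reading every rise and fall in splicing given below would change places, while the opposition between the junctions of a gene would stay.

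SCN3A, which encodes an alpha subunit most abundant in the fetal brain, exchanged one exon for its neighbour. The junctions at both sides of the upstream exon fell and those at both sides of the downstream exon rose (cluster adjusted p = 1.79e-05 in the authors' deposited table). The junction into the upstream exon, from 165163893 to 165164392, fell by 7.6 points, and the junction out of it, from 165162828 to 165163802, fell by 9.3 points in the authors' deposited table. Into the downstream exon, the junction from 165163709 to 165164392 rose by 6.1 points, and out of it the junction from 165162828 to 165163618 rose by 10.6 points in the authors' deposited table. The fifth junction, which passes over both exons, changed by 0.2 points in the authors' deposited table. All 4 exon junctions were annotated. SCN3A lies on the minus strand, so the upstream exon is the one at the higher coordinates.

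SCN8A, which encodes the main alpha subunit of mature initial segments and nodes of Ranvier, showed a like exchange, with a higher adjusted p of 0.0203 in the authors' deposited table. On chromosome 12, the junction into its upstream exon, from 51687219 to 51688758, fell by 5.2 points, and the one out of it, from 51688849 to 51699570, fell by 7.7 points in the authors' deposited table. The junction out of the downstream exon, from 51689096 to 51699570, rose by 8.9 points, but the junction into it from the shared upstream end rose by only 0.9 points in the authors' deposited table. A junction joining the upstream exon to the downstream one, from 51688849 to 51689005, rose by 1.3 points in the authors' deposited table. The rise was thus uneven between the sides of the downstream exon, 8.9 points on one and 2.2 points on the other. In SCN8A every junction of the downstream exon was called unannotated, the one that joins it to the upstream exon included, while the junctions of the upstream exon with the shared ends were annotated. The remaining 2 junctions of the cluster start at 51663093: the annotated one to 51684174 rose by 3.3 points, and the one that skips to 51699570 fell by 1.6 points in the authors' deposited table.

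**Figure D2:**
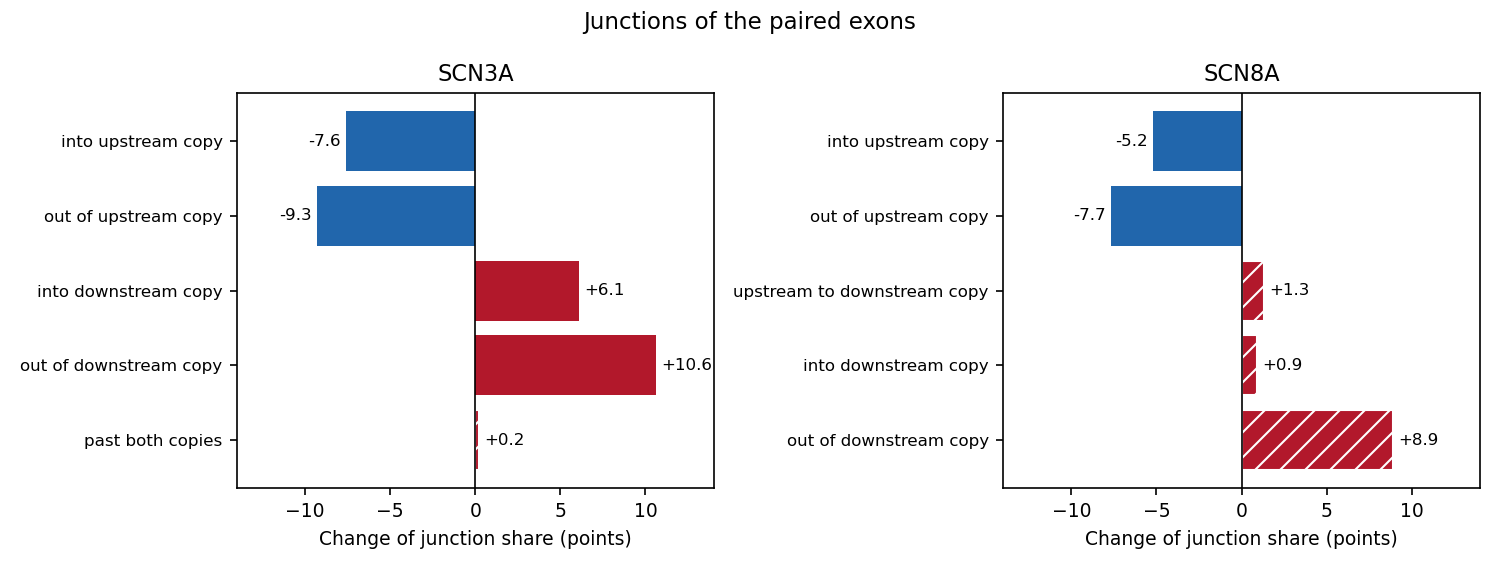
Change in share of the cluster (x axis, percentage points, TDP-43 shRNA minus scrambled shRNA as read) for each junction of the paired exons of SCN3A and SCN8A, 1 bar per junction, red for a rise and blue for a fall. Hatched bars are junctions not called annotated. In both genes the junctions between the upstream copy and the shared ends had values of -9.3 to -5.2 points, and those between the downstream copy and the shared ends 0.9 to 10.6 points. The SCN8A junction that joins one copy to the other had 1.3 points.

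The exons exchanged in the genes had the same size. The ends of the junctions that bound them lay 91 nt apart for both exons of SCN3A and for both exons of SCN8A. The paired exons stood 93 nt apart in SCN3A and 156 nt apart in SCN8A. Pairs of equal length that replace each other are known from the alternative voltage-sensor exon of these genes, but the deposited tables number no exons, so which copy is the embryonic and which the adult one is not stated here.

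The exchange was looked for across all clusters, as pairs of exons up to 300 nt that share the junction end before and the one after. There were 1203 such pairs in 427 clusters, and 23 pairs had exons of equal length, in 17 named genes. SCN3A and SCN8A were 2 of the 17. The summed change of the upstream exon was -16.9 points and of the downstream exon 16.7 points in SCN3A, and -12.9 and 9.8 points in SCN8A, computed from the authors' deposited table. Genes that encode synaptic and channel proteins moved in both directions. CACNA1C, a calcium channel alpha subunit, had -32.1 points upstream and 34.8 points downstream, and SNAP25, a vesicle fusion protein, had -19.7 and 19.3 points, computed from the authors' deposited table. GRIA4, a glutamate receptor subunit, had -23.0 and 4.9 points, computed from the authors' deposited table. The signs were the opposite in STX3, a membrane fusion protein of the syntaxin family, with 13.1 points upstream and -11.8 points downstream, computed from the authors' deposited table. They were also the opposite in the glutamate receptor gene GRIA2, with 3.0 and -13.1 points, and in the pyruvate kinase gene PKM, with 25.3 and -25.3 points, computed from the authors' deposited table. Across the 23 pairs, 8 had a falling upstream and a rising downstream exon and 8 the opposite. With at least 5 points on each side these counts were 5, with SCN3A and SCN8A among them, and 3. CACNA1C, SNAP25, GRIA4, STX3, GRIA2 and PKM were chosen after their values were seen.

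**Figure D3:**
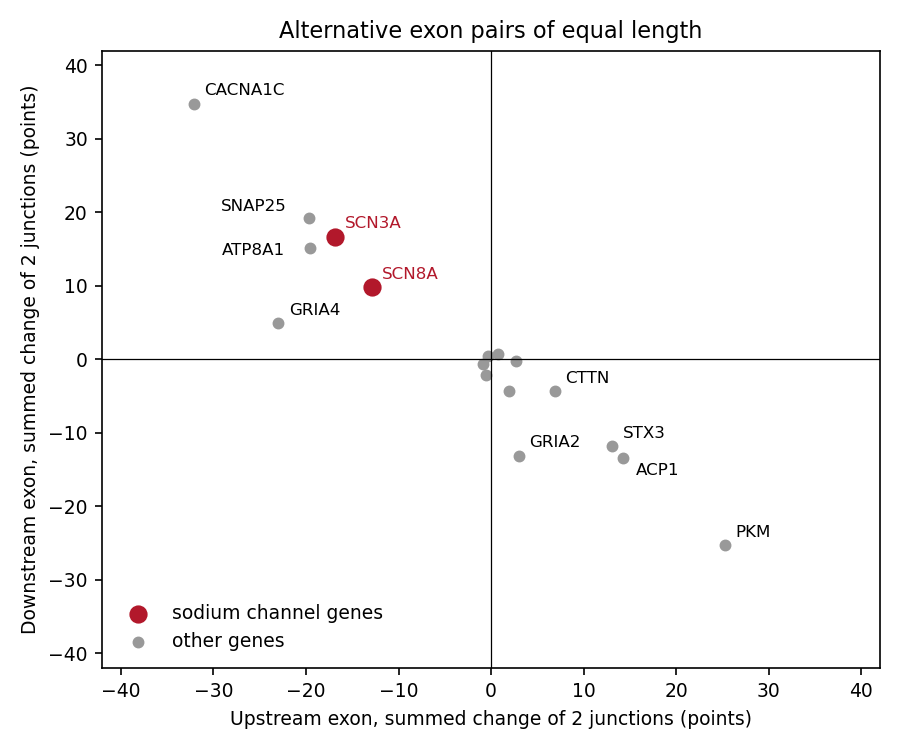
Summed change of the 2 junctions of the downstream exon (y axis, points) against that of the upstream exon (x axis, points), 1 point per named gene for the 17 genes with an equal-length exon pair in 1 cluster. SCN3A and SCN8A, in red, are at the upper left, with CACNA1C, SNAP25, ATP8A1 and GRIA4 among the others there. PKM, ACP1, STX3, GRIA2 and CTTN are among the genes at the lower right.

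SCN2A shifted between junctions that leave from different donors (cluster adjusted p = 0.00572 in the authors' deposited table). The annotated junction from 165239640 to 165295773 rose by 11.4 points, and the annotated junction from 165294135 to the same acceptor fell by 11.8 points in the authors' deposited table. The rising donor lay 226 nt past the first RefSeq start printed above, and the falling donor lay 54721 nt past it, 1638 nt before the shared acceptor. From an unannotated donor at 165241114, which lies 54 nt past the second RefSeq start printed above, the junction to the same acceptor rose by 2.3 points in the authors' deposited table. A junction from the first donor to an unannotated acceptor 107 nt farther on fell by 1.9 points in the authors' deposited table. Summed over junctions, the first donor gained 9.5 points. No junction in the cluster led into the exon that ends at 165294135, so the table does not say whether that exon starts a transcript.

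The second cluster of SCN3A moved among 4 donors of 1 acceptor at 165139608, with smaller changes (adjusted p = 0.0145 in the authors' deposited table). The annotated donor at 165140798 rose by 2.7 points and the unannotated donor at 165140785 by 4.5 points in the authors' deposited table. The unannotated donor at 165140702 fell by 4.9 points and the annotated donor at 165140651 by 2.3 points in the authors' deposited table. On the minus strand the rising donors are the upstream ones, so that the exon before them ends earlier. The annotated donors lay 147 nt apart, a multiple of 3. From the lowest donor, the falling unannotated one lay 51 nt away, also a multiple of 3, and the rising unannotated one lay 134 nt away, which leaves a remainder of 2.

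**Figure D4:**
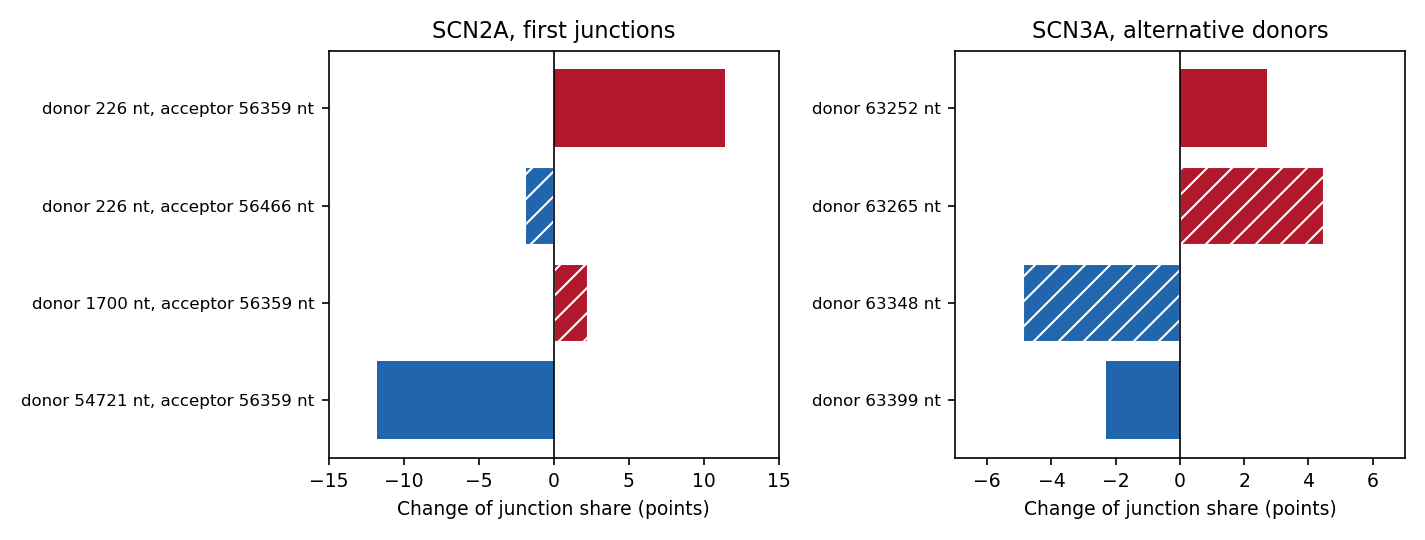
Change in share of the cluster (x axis, percentage points) for the junctions of the SCN2A cluster and of the second SCN3A cluster, labelled by the distance of the donor, and in SCN2A of the acceptor, from the RefSeq start in nt. Red bars rose, blue bars fell and hatched bars are unannotated. The annotated SCN2A junction from the donor at 226 nt gained 11.4 points, and that donor gained 9.5 points over its 2 junctions. The junction from the donor at 54721 nt lost 11.8 points.

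Set against all clusters, the largest changes in sodium channel genes were above the median size, except in the second SCN3A cluster. The largest change was 11.8 points in SCN2A, 10.6 and 4.9 points in the clusters of SCN3A and 8.9 points in SCN8A, against a median of 6.4 points over the 2994 clusters, computed from the authors' deposited table. Larger changes were found in 25.7% of clusters for SCN2A, 30.7% for the first and 60.7% for the second SCN3A cluster, and 36.9% for SCN8A. By adjusted p the first SCN3A cluster ranked 249 of 2994 and the others 1166, 1683 and 1957. The 4 clusters held 20 junctions, of which 11 were annotated (55.0%, against 44.8% of the 15980 junctions in the table). Of the 20 junctions, 11 had positive and 9 negative values.

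Of 9 further genes taken with the family, the sodium leak channel gene NALCN among them, only SCNM1 was listed, with 1 splicing cluster. That share, 11.1%, is near the 11.7% of RefSeq protein-coding genes with a splicing cluster. SCNM1 is named for a modifier of the mouse Scn8a gene and encodes a splicing factor, not a channel. In it the annotated junction from 151167414 to 151168144 fell by 8.2 points and that from 151168338 to 151168986 rose by 6.8 points (adjusted p = 0.0482 in the authors' deposited table).

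A list of 47 genes held those whose products anchor, modify or bind sodium channels. The list was chosen with earlier results of these data known, so its count is a description. A splicing cluster was listed for 25 of them (53.2%, against 11.7% of RefSeq protein-coding genes and 21.9% of those that span at least 100 kb), with 41 clusters in all, of which 7 were in ANK2, 4 in L1CAM, 3 in ANK3 and 3 in NRCAM. The background genes were not limited to those expressed in these neurons, and the parts of expression and gene length in the count were not tested. ANK3, which encodes ankyrin-G, had the largest change. Its annotated junction from 60109054 to 60114225 on chromosome 10 fell by 29.5 points, while an unannotated donor and an unannotated acceptor inside it rose by 18.8 and 10.8 points (adjusted p = 1.14e-05 in the authors' deposited table). Those unannotated ends lay 32 nt apart, so the junctions enclose a short exon that the authors' annotation lacks. In NRCAM, an adhesion molecule bound to ankyrin-G at the initial segment, the annotated junction from 108223836 to 108226208 fell by 17.2 points and another from the same end rose by 12.2 points (adjusted p = 3.88e-11 in the authors' deposited table).

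Further partners with a junction that changed by at least 10 points included UNC79, a subunit of the NALCN complex. An unannotated acceptor of UNC79, 159 nt before the annotated one, rose by 16.7 points and the annotated one fell by 16.7 points (adjusted p = 0.00867 in the authors' deposited table). ANK2, SPTBN1, CNTNAP1, DLG1 and TRIM46 also had a change of that size. All 5 partners with a 3' end-seq change were called longer, with 0 called shorter. They were FYN at 0.341, NEDD4L at 0.323, FGF13 at 0.294, PACS2 at 0.189 and MAPK8IP2 at 0.175 in the authors' deposited table. Longer was listed for 8.2% of RefSeq protein-coding genes and for 10.6% of the 47, a share near that background. Shorter was listed for 1.34% of RefSeq protein-coding genes, so longer was the more frequent call there too. NEDD4L is a ubiquitin ligase that removes sodium channels from the membrane, and FGF13 a cytoplasmic protein that binds the tail of the channel. FGF13 also had a cryptic site in its 3'UTR used at 36.8% in TDP-43 shRNA neurons and 5.43% in scrambled shRNA neurons in the authors' deposited table. FYN, MAPK8IP2 and PACS2 were distal in RNA-seq as well, at 0.896, 0.472 and 0.313 on an index of another scale in the authors' deposited table. Distal was listed for 3.98% of RefSeq protein-coding genes and for 6.38% of the 47.

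In the other voltage-gated channel families, 6 of 26 calcium channel genes were called longer (23.1%) and 0 shorter, and 3 of 40 potassium channel genes were longer (7.5%) and 1 was shorter (2.5%) in the authors' deposited table. Over RefSeq protein-coding genes 8.2% were listed as longer and 1.34% as shorter, so longer was the more frequent call throughout, and the potassium channel share was near that background. The shorter one, KCNH7, also had a premature intronic site, used at 17.5% in TDP-43 shRNA neurons and 5.09% in scrambled shRNA neurons in the authors' deposited table, a smaller gain than that of SCN9A. Splicing clusters were listed for 3 of 7 sodium channel genes, 7 of 26 calcium channel genes (26.9%) and 5 of 40 potassium channel genes (12.5%), against 11.7% of RefSeq protein-coding genes and 21.9% of those that span at least 100 kb. The potassium channel share was thus near the background. The difference between the families was not tested.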

How the data were processed

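RNA-seq and 3' end-seq libraries of neurons after TDP-43 or scrambled shRNA were compared by the authors. Per the submitters' processing notes, the genome build was hg38 and the tools included STAR, SAMtools, Salmon, fastp and DESeq2, with no role given. Leafcutter is known per the deposited table's name. Which caller found polyadenylation changes is not given here in any source.

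The changes of usage index and of junction share are scores that the authors deposited, the latter rounded to 3 decimals. The deposited p-values are adjusted p-values per gene or cluster. Cryptic site usage was deposited as a fraction, 1 value for each group, with no stated denominator; it is printed as a percent. The introns per cluster are a deposited count. In the deposited gene table, 6 columns of normalized values were left out: their names match no sample's labels alone, and assigning them by the level of TARDBP would be a guess. Gene expression of the members, which was planned, is not analysed here.

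The members and lists were chosen with earlier results of these data known. Members, the rest of the family and listed partners were named by rule. Some results on related genes are not reported here. Symbols were matched to RefSeq (GRCh38.p14) by current name or a synonym of 1 gene; background shares use its protein-coding genes, since the number tested is not known. Junction ends are printed as deposited. The pair finder and the distance function were tested on simulated data. Python 3.11.15, numpy 2.4.6, pandas 2.3.3 and matplotlib 3.10.9 were used.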

Additional observations from a re-analysis of the deposited data

How the results depend on the processing

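SCN9A stayed the 1 member with a 3' end-seq change with matching by Ensembl ID, at an adjusted p up to 0.01 and at a change of at least 0.2. With control usage limited to 3%, the count of members with a cryptic site was 0, since SCN9A had 4.14% in scrambled shRNA neurons; at a knockdown usage of at least 20% it was 1. Of the 4 splicing clusters, 2 had an adjusted p up to 0.01 (SCN3A and SCN2A) and 1 up to 0.001 (SCN3A), against 48.4% and 21.0% of all clusters, so the SCN8A cluster and the second SCN3A cluster are lost at 0.01. Matching by coordinates gave 4. Of the 20 junctions, 9 changed by at least 5 points and 3 by at least 10 points. These counts are smaller because fewer entries pass a stricter limit. The counts of 0 members in the RNA-seq polyadenylation table at a stricter p, and of 0 junctions near a SCN9A site at each distance tried, could not have been higher, since no member was in that table and no junction of SCN9A in the splicing tables, and say nothing of stability. No paired analysis was possible because the tables used hold no value per library. Alternatives for gene expression were not run for the same reason. The depth behind the values is unknown, so no counting interval could be computed, and no replicate could be left out.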

Other observations

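Unannotated junctions leaned to the side read as higher in TDP-43 shRNA neurons. Of 419 junctions with an unannotated end and a change of at least 10 points, 293 had positive values (69.9%), against 441 of 1098 annotated junctions (40.2%), computed from the authors' deposited table. At a change of at least 5 points these counts were 673 of 1036 (65.0%) and 996 of 2399 (41.5%). The sodium channel genes had 7 junctions with an unannotated end, 3 in SCN8A and 2 each in SCN2A and SCN3A, all under 10 points; of these the values of 5 were positive, 8.9, 1.3 and 0.9 in SCN8A, 2.3 in SCN2A and 4.5 in SCN3A, and those of 2 were negative, -1.9 in SCN2A and -4.9 in SCN3A, in the authors' deposited table. The 3 in SCN8A are all junctions of 1 exon, the downstream one of its equal-length pair. Shares within a cluster sum to about 0, so these signs are not independent of each other. Of the 7 junctions, only the one with 8.9 points in SCN8A changed by at least 5 points. The members' signs therefore cannot be compared with the shares over all junctions given above.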
